A study of Mus musculus with 36 samples.

Results

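The 9 genes described here act in pericellular proteolysis and were measured in epidermal cells of wounded mouse tail skin: the plasminogen activators Plau and Plat, the urokinase receptor Plaur, the activator inhibitor Serpine2, the matrix metalloproteinases Mmp3, Mmp13, Mmp9 and Mmp14, and the metalloproteinase inhibitor Timp1. They were taken by name, and all 9 had a row in both count tables, which together held 23903 gene names (20181 for Lrig1 and 22587 for Lgr5). Each table held 18 libraries of tdTomato+ cells, 3 for each of 6 time points: unwounded skin (0w), 1, 2, 4 and 8 weeks after a first wound (1w, 2w, 4w and 8w pw1), and 1 week after a second wound that was made 8 weeks after the first (1w pw2). The mice carried EGFP-ires-CreERT2 at either the Lrig1 or the Lgr5 locus together with a Rosa26-fl/STOP/fl-tdTomato reporter, so that the progeny of upper hair follicle (Lrig1 GL, for genetically labelled) or lower hair follicle stem cells (Lgr5 GL) kept the red label.

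Every group, 0w included, had received a single dose of hydroxytamoxifen on the tail. The mice were 6 to 8 weeks old at labelling and 7 to 9 weeks old at 0w, when the 2 mm full-thickness tail wounds were made. Later groups were therefore older, and time after wounding and age cannot be told apart. Each library came from 150 sorted cells of a zone that included the wound bed and the follicles farther away, with 3 mice per group. The label marks descendants of cells in which the Lrig1 or the Lgr5 promoter was active at labelling, not one cell state at sorting. At 0w the keratinocyte marker Krt14 was at 10329 ± 2679 CPM (read counts scaled to a common library size, mean ± SD, n = 3) in Lrig1 GL and 4978 ± 337 in Lgr5 GL libraries, so both were epithelial by this marker.

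Keratinocytes at a wound edge sit on a fibrin-rich provisional matrix. Urokinase (Plau) and tissue plasminogen activator (Plat) cut plasminogen into plasmin, which dissolves fibrin and can activate some metalloproteinase precursors. The metalloproteinases cleave matrix proteins and the ties that hold a cell to them: stromelysin 1 (Mmp3) and collagenase 3 (Mmp13) are secreted, gelatinase B (Mmp9) is made by keratinocytes and by leukocytes, and Mmp14 is anchored in the membrane. Serpine2 (protease nexin 1) blocks serine proteases, urokinase and thrombin among them, and Timp1 blocks metalloproteinases.

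Library totals ran from 765252 to 3365666 counts in Lrig1 GL (median 1930063) and from 1297798 to 6960537 in Lgr5 GL (median 4284763). The non-coding gene Gm12415 took 12.04% to 52.1% of the Lgr5 GL counts, so CPM here are scaled by the trimmed mean of M values (TMM). Correlations between libraries of the same group ran from 0.682 to 0.904 (Pearson, log2 CPM across genes, which are not independent). The lowest were among the Lrig1 GL 0w libraries, at 0.682 to 0.748. The tables were normalised apart, so levels are compared within a population, and only changes are compared between populations.

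Before wounding, 6 of the 9 genes (Plaur, Plat, Mmp3, Mmp9, Mmp13 and Timp1) had no count in any of the 3 Lrig1 GL libraries. Of all genes in that table, 6.47% had none at 0w. In Lgr5 GL at 0w each of the 9 had counts, in all 3 libraries for 7 of them and in 2 libraries for Plat and Mmp9. A total of 3 counts over the Lrig1 GL 0w group corresponds to 0.502 CPM, which is the level that a count of 0 still allows there. Such limits, and the bounds made from them, cover counting error only. In these bulk samples fewer expressing cells and less RNA per cell cannot be told apart.

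**Figure D1:**
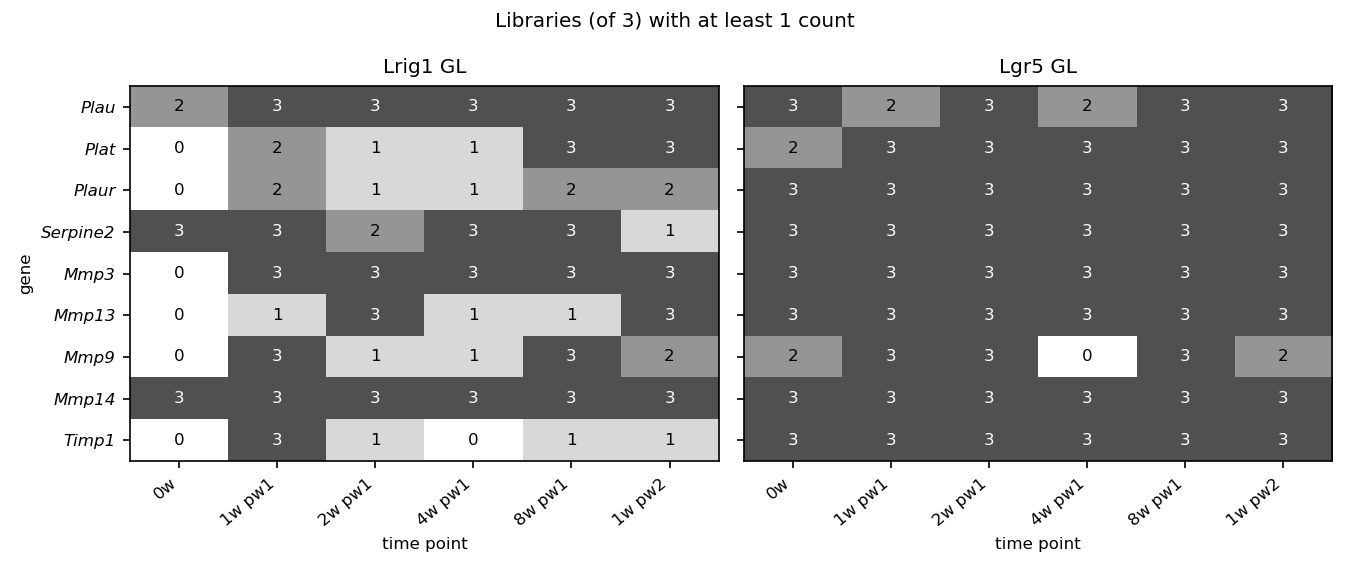
Number of libraries, out of 3, with at least 1 count of each gene (rows) at each time point (columns), in Lrig1 GL (left) and Lgr5 GL (right); darker squares hold more libraries. Plaur, Plat, Mmp3, Mmp9, Mmp13 and Timp1 have 0 of 3 in Lrig1 GL at 0w, and Mmp3 has 3 of 3 in that population at every later time point.

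Per kilobase of exon, the highest mean levels at 0w in Lrig1 GL were those of Mmp14 (14.6 CPM per kb), Plau (6.09) and Serpine2 (5.14), and the libraries of each overlapped those of the next, while the other 6 genes were at 0. In Lgr5 GL at 0w the order began with Timp1 (28.9 CPM per kb), Mmp3 (26.2) and Mmp14 (18.3), whose libraries overlapped one another, and Serpine2 followed at 4.93, below every Mmp14 library. Mmp9 was lowest, at 0.0837.

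Mmp3 was the member that stood above unwounded skin in every later Lrig1 GL library. It was called higher at 8w pw1 and at 1w pw2, and it was the single member called at any time point. The gene lies on chr9:7445822-7455975 (GRCm38, plus strand), in a row of metalloproteinase genes that also holds Mmp13 at chr9:7272514-7283331. In the order of the libraries, Mmp3 was at 0, 0 and 0 CPM at 0w, then at 32.3, 3.39 and 4.15 at 1w pw1, and at 21.9, 51.6 and 18.6 at 2w pw1. It stood at 18.4, 9.54 and 44.9 CPM at 4w pw1, at 21.8, 14.7 and 38.1 at 8w pw1, and at 22.2, 2.99 and 15.8 at 1w pw2. All 15 later libraries therefore lay above all 3 unwounded ones. All 3 libraries lay above 0w for 7.51%, 6.1%, 5.5%, 14.8% and 13.9% of all genes tested at these time points, in the order given. Among the 20181 Lrig1 genes, 10 (0.0496%) had no count at 0w and at least 1 count in each of the 15 later libraries, and Mmp3 was one of them.

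The summed Mmp3 counts were 46, 186, 137, 155 and 79 at the 5 later time points, against 0 at 0w. With the unwounded group set at its limit of 3 counts, Mmp3 was at least 22.3-fold higher at 1w pw1, 54.6-fold at 2w pw1, 52.2-fold at 4w pw1, 49.4-fold at 8w pw1 and 24.9-fold at 1w pw2. The bound for Mmp3 was 7.83-fold at 1w pw1 without library 1 and 38.0-fold without library 3, 29.9-fold at 4w pw1 without library c, and 15.2-fold at 1w pw2 without library 1 and 38.8-fold without library 2. By the quasi-likelihood test of edgeR, with Benjamini-Hochberg adjustment over 14306 genes, adjusted p was 0.0180 at 8w pw1 and 0.0285 at 1w pw2. At 1w, 2w and 4w pw1 it was 0.0620, 0.0508 and 0.0800, above the threshold of 0.05. The unadjusted p of the same test was 0.000169, 3.86e-05 and 5.59e-05 there, against 5.40e-05 at 8w pw1 and 0.000153 at 1w pw2. The calls therefore do not set 8w pw1 and 1w pw2 apart from 2w and 4w pw1. At 8w pw1 2.82% of all genes tested were called and 1.52% were called higher, and at 1w pw2 1.23% and 0.993%. At 1w, 2w and 4w pw1 0.217%, 0% and 0.0419% were called.

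Both calls were lost with surrogate variables as covariates, the correction that the study applied (adjusted p 0.150 at 8w pw1 and 0.127 at 1w pw2 with the estimated number). The fitted log2 changes of Mmp3 were 9.17 and 7.97 in that fit, against 8.58 and 7.72 without surrogate variables. Both calls were also lost with limma-voom (0.0895 and 0.182), and that at 1w pw2 with the GC trend removed (0.0528). Without the first unwounded Lrig1 GL library adjusted p was 0.0600 at 8w pw1 and 0.0861 at 1w pw2. Without 8w pw1 library a it was 0.0524 at 8w pw1. The call at 1w pw2 was also lost without either of the other unwounded libraries or any of the 1w pw2 libraries (0.0567 to 0.0861 over these 6 fits). Without library 1 of 1w pw1 Mmp3 passed at 2w pw1 (0.0481) and 4w pw1 (0.0333) as well. It was called at every later time point against 0w by DESeq2 (adjusted p 1.89e-05 to 0.000669) and by the likelihood ratio test of edgeR (2.41e-05 to 0.000325). The same held for the quasi-likelihood test with a stricter count filter (0.0130 to 0.0495). The share of all genes that these fits called at single time points is not given here. Between the later time points Mmp3 did not pass the test in Lrig1 GL: adjusted p was 0.994 for 1w pw2 against 1w pw1, and the groups overlapped.

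The 8w pw1 libraries of Lrig1 GL also carried more mitochondrial transcripts (10.9% to 14.4% of counts, against 3.15% to 5.38% at 0w) and more detected genes (16848 to 17352, against 15666 to 16332). The part of these differences in the Mmp3 result was not tested. Of 8 fibroblast markers, 5 were in the Lrig1 table (Col1a1, Col1a2, Col3a1, Pdgfra and Dcn), and they summed to 7.70 to 41.6 CPM at 0w, 3.75 to 55.0 at 8w pw1 and 3.74 to 13.2 at 1w pw2, ranges that overlap that of 0w. Of 11 leukocyte markers, 5 were in the table, and they summed to 0 to 1.54 CPM at 0w, 1.22 to 300 at 8w pw1 and 816 to 888 at 1w pw2. Nearly all of the 1w pw2 sums and of the highest 8w pw1 sum was S100a8, which wound keratinocytes also express. Without it the leukocyte sums were 1.22 to 2.68 CPM at 8w pw1 and 0.472 to 17.1 at 1w pw2, with Cd74 and H2-Aa at 0 counts in both groups. The pan-leukocyte gene Ptprc had 4 counts over the 8w pw1 group and 57 over the 1w pw2 group, against 4 at 0w, and Cd52 had 10 and 3, against 0. The part of these cells in the Mmp3 result was not tested.

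In Lgr5 GL, Mmp3 was present from the start and did not pass the test at any time point. Its libraries read 37.2, 9.55 and 94.8 CPM at 0w, 381, 19.2 and 28.9 at 1w pw1, and 30.6, 17.4 and 50.9 at 2w pw1. They read 37.0, 11.7 and 16.1 CPM at 4w pw1, 68.0, 24.9 and 4.98 at 8w pw1, and 17.9, 18.3 and 18.8 at 1w pw2. Every time point overlapped 0w, and library 1 of 1w pw1 stood far above all others. Of the 8 fibroblast markers 7 were in the Lgr5 table, and they summed to 122, 159 and 358 CPM in the 0w libraries, the last being the one with 94.8 CPM of Mmp3, and to 163, 124 and 54.9 CPM at 8w pw1. In Lrig1 GL the sums at 0w were 7.70 to 41.6 CPM, over 5 markers and in a table normalised apart. The part of these cells in the Mmp3 levels and in the comparison of Mmp3 between populations was not tested. The 3 libraries of 1w pw2 lay below the 3 of 1w pw1, by 2.96 on the log2 scale (SE 1.05), with an adjusted p of 0.184 by the same test over 18025 genes. Without library 1 of 1w pw1 the difference was -0.40, and with surrogate variables its sign turned (0.69 with the estimated number and 1.06 with 2). In that comparison 11% of all genes tested had all 3 libraries below.

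**Figure D2:**
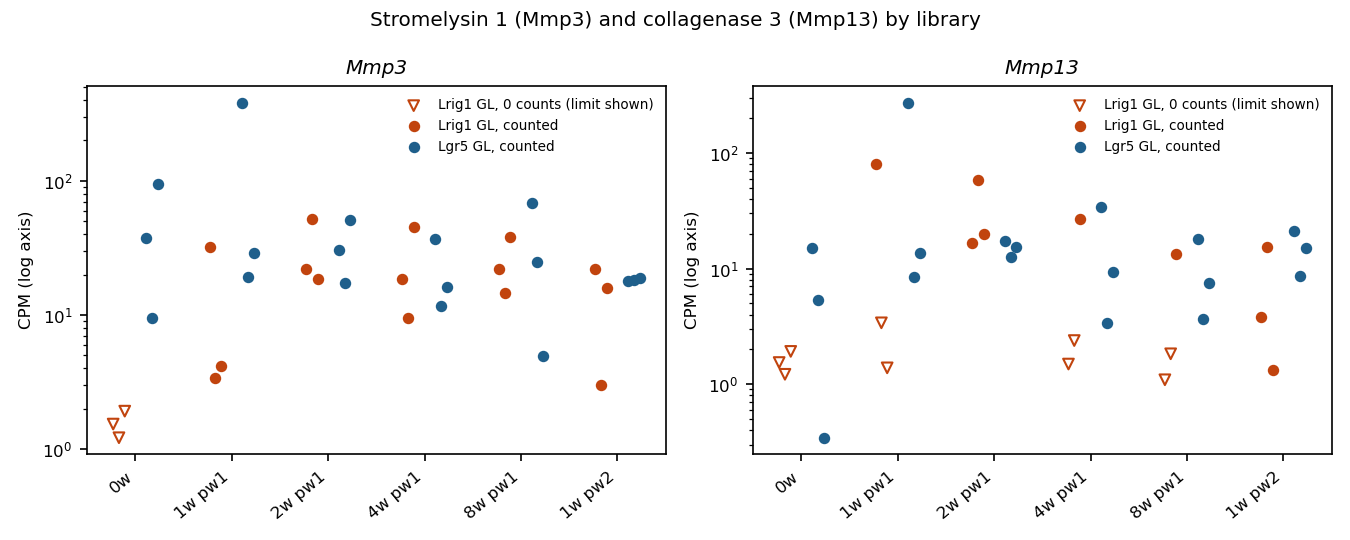
Mmp3 (left) and Mmp13 (right) in CPM on a log axis, 1 symbol per library, for Lrig1 GL (orange) and Lgr5 GL (blue) at 6 time points; open triangles mark libraries with 0 counts and stand at the level of 3 counts in that library. The 3 unwounded Lrig1 GL libraries are open triangles in both panels, and the later Lrig1 GL libraries hold 2.99 to 51.6 CPM of Mmp3.

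The change of Mmp3 from 0w to 8w pw1 differed between the populations. The log2 difference of the changes (Lrig1 GL minus Lgr5 GL) was 9.56 (SE 2.29) with an adjusted p of 0.0395 in a single edgeR model over 16153 genes, in which 1.11% of genes differed for that change. The size of this estimate depends on the prior count added to the empty unwounded group, and it was 5.60 with a prior count of 2 in place of 0.125. For the changes to 1w, 2w and 4w pw1 and to 1w pw2 the adjusted p was 0.228, 0.150, 0.0864 and 0.0766. With the prior count of 0.125 the log2 difference was 6.41 (SE 2.48) for the change to 1w pw1, 9.81 (SE 2.28) to 2w pw1 and 9.50 to 1w pw2. The call therefore does not set 8w pw1 apart from 2w pw1 or 1w pw2. The call at 8w pw1 was lost in 14 of 36 fits that left out 1 library (adjusted p 0.0516 to 0.0931). It was also lost with limma-voom (0.112), with surrogate variables (0.160 with the estimated number and 0.122 with 2) and with the GC trend removed (0.110). The libraries concerned were all 3 Lrig1 GL libraries at 0w and at 8w pw1, library 3 of Lrig1 GL at 1w pw2, Lgr5 GL libraries a and c at 0w, all 3 Lgr5 GL libraries at 8w pw1, and Lgr5 GL libraries 2 and 3 at 1w pw2. Without library 1 of Lgr5 GL at 1w pw1 the changes to 4w pw1 (adjusted p 0.0323) and 1w pw2 (0.0427) also differed. Over all genes 0.0495%, 0%, 0.0929% and 0.155% differed for the changes to 1w, 2w and 4w pw1 and to 1w pw2. No other member passed this test at any time point. Timp1 came nearest, at 1w pw1, with an adjusted p of 0.0828.

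Mmp13 varied with Mmp3 in both populations. Over the 18 libraries Spearman's rho was 0.681 among Lrig1 GL and 0.465 among Lgr5 GL libraries, a description, since the libraries share time points and differ in depth. Among the 21 pairs of the 7 members with enough counts this pair had the highest value of the smaller rho, while Serpine2 and Mmp14 reached 0.614 in Lgr5 GL and 0.229 in Lrig1 GL. In Lrig1 GL, Mmp13 was at 0 CPM in all 3 libraries at 0w, at 79.7, 0 and 0 at 1w pw1, and at 16.5, 58.6 and 19.9 at 2w pw1. It was at 0, 0 and 27.0 CPM at 4w pw1, at 0, 0 and 13.4 at 8w pw1, and at 3.78, 15.3 and 1.32 at 1w pw2. All 3 libraries were thus above 0w at 2w pw1 (at least 55.5-fold higher over the group) and at 1w pw2 (at least 16.1-fold). At these time points 6.1% and 13.9% of all genes had all 3 libraries above 0w. The bounds were 36.8-fold without library b of 2w pw1 and 5.47-fold without library 2 of 1w pw2. At 1w, 4w and 8w pw1 a single library held every count.

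Adjusted p for Mmp13 was 0.375 at 2w pw1 and 0.276 at 1w pw2. In Lgr5 GL the gene read 14.98, 5.40 and 0.345 CPM at 0w and 271, 8.49 and 13.7 at 1w pw1. The library with 271 CPM of Mmp13 was the one with 381 CPM of Mmp3. From 2w pw1 to 1w pw2 the Lgr5 GL libraries ranged from 3.35 to 34.0 CPM, and adjusted p across the time course was 0.183. Of the other metalloproteinase genes in the same row on chromosome 9, Mmp10 had counts in 4 Lrig1 GL and 13 Lgr5 GL libraries and Mmp8 in 8 and 10.

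Promoter sequences (RefSeq, GRCm38.p6) were at hand for 6 of the 9 members. Those of Mmp3, Mmp13 and Mmp14 are shown because the first pair varied together while Mmp14 was counted in every library. Each run holds the 120 bases before the transcription start, 5′ to 3′ on the plus strand, at chr9:7445702-7445821, chr9:7272394-7272513 and chr14:54431478-54431597. Capitals mark matches to the AP-1 motif TGANTCA, searched on both strands.
Mmp3: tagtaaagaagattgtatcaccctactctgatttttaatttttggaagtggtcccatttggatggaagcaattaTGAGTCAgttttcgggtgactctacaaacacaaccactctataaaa
Mmp13: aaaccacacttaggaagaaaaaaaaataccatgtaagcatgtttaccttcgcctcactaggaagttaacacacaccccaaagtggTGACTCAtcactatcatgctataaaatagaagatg
Mmp14: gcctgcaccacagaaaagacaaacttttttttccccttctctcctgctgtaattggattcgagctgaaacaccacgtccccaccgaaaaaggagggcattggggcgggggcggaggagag

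The match lay 46 to 40 bases before the start in Mmp3 and 35 to 29 bases before it in Mmp13, and Plaur held another at 69 to 63 bases before its start. The windows of Serpine2, Mmp14 and Timp1 held none in the 250 bases before the start, where 6.749% of 32851 promoters held at least 1. The ETS motif AGGAAG occurred in all 6 windows and in 29.48% of all promoters. Matched letters describe the sequence and say nothing of binding in these cells.

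Mmp9 and Timp1 shared another pattern in Lrig1 GL, with their highest levels at 1w pw1. Mmp9 (chr2:164940780-164955850, plus strand) was at 0 CPM in all 3 unwounded libraries and at 9.49, 22.6 and 84.0 at 1w pw1. It was at 0, 0 and 4.73 CPM at 2w pw1, at 0, 0.795 and 0 at 4w pw1, at 0.728, 1.83 and 0.536 at 8w pw1, and at 2.36, 0 and 11.8 at 1w pw2. The 1w pw1 libraries lay above all those of 0w, 2w pw1, 4w pw1 and 8w pw1. Of all genes 7.51% lay above 0w in this way at 1w pw1. Against 1w pw1, 8.05% of all genes lay below in this way at 4w pw1 and 13.2% at 8w pw1, and the share was not taken at 2w pw1. Over the group, Mmp9 was at least 103-fold higher at 1w pw1 than at 0w, with an adjusted p of 0.138. Library 3 held 182 of the Mmp9 counts, and without it the bound was 30.8-fold.

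Timp1 (chrX:20870166-20874735, plus strand) was at 0 CPM at 0w, at 8.54, 6.79 and 29.5 at 1w pw1, and at 0 in 9 of the 12 later libraries. The other 3 held 0.630 CPM at 2w pw1, 1.09 at 8w pw1 and 2.99 at 1w pw2. The 1w pw1 libraries lay above those of every other time point. Of all genes 7.51% lay wholly above 0w at 1w pw1, and 8.05%, 13.2% and 8.81% lay wholly below 1w pw1 at 4w pw1, 8w pw1 and 1w pw2. Over the group it was at least 38.3-fold higher at 1w pw1 than at 0w, with an adjusted p of 0.210. Library 3 held 64 of the Timp1 counts, and without it the bound was 15.4-fold. The gene span of Timp1 overlaps that of Syn1 on the opposite strand. Counts were taken over exons, and whether the exons of the pair overlap was not examined.

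In the library with the highest Mmp9 and Timp1, 1w pw1 library 3 of Lrig1 GL, the fibroblast markers summed to 89.6 CPM. In the other 1w pw1 libraries they summed to 31.3 and 7.92 CPM, and at 0w to 7.70 to 41.6. The leukocyte markers summed to 343 to 2120 CPM at 1w pw1, against 0 to 1.54 at 0w, and without S100a8 to 0 to 6.001. Over the 1w pw1 group Cd52 had 0 counts, Ptprc 5, Cd74 8 and H2-Aa 1, against 0, 4, 0 and 0 at 0w, and the sum of 6.001 CPM was that of library 3. The part of these cells in the Mmp9 and Timp1 values was not tested. Krt6b, a keratin of wound-edge keratinocytes, rose at 1w pw1 in both populations, by 4.07 on the log2 scale in Lrig1 GL (SE 0.68, adjusted p 0.0157) and by 2.57 in Lgr5 GL (SE 0.61, adjusted p 0.0454). It is 1 of 6 wound-edge markers (Krt6a, Krt6b, Krt16, Krt17, Itga5 and Itgb6). In Lrig1 GL the 6 summed to 4562 to 10837 CPM at 1w pw1 and 2718 to 5002 at 0w, which overlap. In Lgr5 GL they summed to 6704 to 11114 CPM at 1w pw1 and 2889 to 5101 at 0w.

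**Figure D3:**
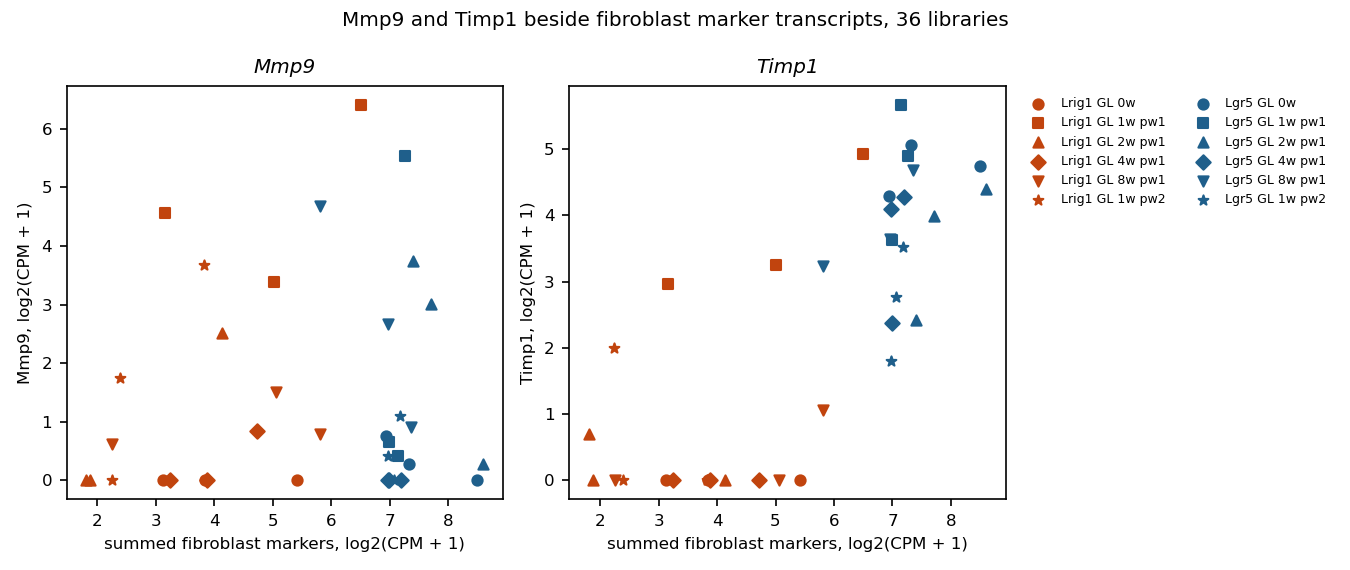
Mmp9 (left) and Timp1 (right), as log2(CPM + 1), against the summed fibroblast markers of the same library on the same log2(CPM + 1) scale, for the 36 libraries, Lrig1 GL in orange and Lgr5 GL in blue, with a symbol for each time point. The Lrig1 GL library with 84.0 CPM of Mmp9 and 29.5 CPM of Timp1 holds the highest fibroblast sum of its population, 89.6 CPM, and the Lgr5 GL libraries lie at 54.9 to 385 CPM. The sum is over 5 markers in Lrig1 GL and 7 in Lgr5 GL, in tables normalised apart.

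Both genes were also followed in Lgr5 GL. Mmp9 read 0.681, 0.208 and 0 CPM at 0w, 0.326, 0.566 and 45.5 at 1w pw1, and 12.4, 7.09 and 0.218 at 2w pw1. It was at 0 CPM in all 3 libraries at 4w pw1, at 0.883, 5.36 and 24.6 at 8w pw1, and at 0, 0.333 and 1.13 at 1w pw2. Library 3 alone was high at 1w pw1, and the 8w pw1 libraries lay above all those of 0w (log2 difference 4.92, SE 1.94, adjusted p 0.769), as 6.49% of all genes did. The lowest 8w pw1 library held 2 counts and the highest 0w library 3, so that gap is within counting error. The 4w pw1 libraries lay below those of 1w pw1, with an adjusted p of 0.0980, and so did 12.1% of all genes. Libraries 1 and 2 of 1w pw1 held 1 count each. In the 4w pw1 libraries 3 counts amount to 1.26 to 2.92 CPM, so 0 counts there still allow the levels of both. That separation therefore rests on library 3 of 1w pw1.

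Timp1 in Lgr5 GL was already at 18.6, 32.6 and 25.8 CPM at 0w and at 49.9, 11.3 and 28.7 at 1w pw1. It read 18.5, 4.19 and 16.1 CPM at 4w pw1 and 5.84, 2.50 and 10.5 at 1w pw2, in both cases with all 3 libraries below 0w. The log2 differences from 0w were -1.01 (SE 0.74, adjusted p 0.669) and -2.05 (SE 0.75, adjusted p 0.691), and 7.79% and 5.33% of all genes lay below 0w in this way. The 1w pw2 libraries also lay below those of 1w pw1, by 2.28 on the log2 scale (SE 0.75, adjusted p 0.162), as 11% of all genes did.

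Mmp14, which activates other metalloproteinases at the cell surface, was counted in all 36 libraries. The gene lies on chr14:54431612-54445364 (plus strand). In Lrig1 GL its mean stayed between 58.7 ± 11.8 CPM (8w pw1) and 94.2 ± 43.1 CPM (2w pw1), with 131, 69.0 and 60.8 at 0w, and each time point overlapped 0w (adjusted p across the time course 0.820). In Lgr5 GL it read 163, 80.7 and 83.4 CPM at 0w, 70.1, 32.3 and 41.9 at 1w pw1, 73.8, 55.4 and 50.04 at 2w pw1, and 51.2, 54.3 and 60.5 at 8w pw1. All 3 libraries of these 3 later groups lay below 0w, as 9.8%, 5.73% and 4.7% of all genes did. The log2 difference was -1.18 at 1w pw1 (SE 0.35, adjusted p 0.0947), -0.87 at 2w pw1 (SE 0.35, adjusted p 0.469) and -0.98 at 8w pw1 (SE 0.35, adjusted p 0.737), so none passed the test. At 4w pw1 (119, 73.8 and 71.3 CPM) and 1w pw2 (80.8, 82.0 and 62.5 CPM) the libraries overlapped those of 0w. All 3 libraries of 1w pw2 lay above those of 8w pw1 (log2 difference 0.44, SE 0.35, adjusted p 1.0), as 6.2% of all genes did. Those of 4w pw1 lay above those of 1w pw1 (0.86, SE 0.36, adjusted p 0.162), as 12.1% of all genes did.

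Of the activators, urokinase (Plau, chr14:20836660-20843385, plus strand) varied widely within groups. In Lrig1 GL it read 42.6, 0 and 0.640 CPM at 0w and 2.85, 23.8 and 14.3 at 1w pw1, and from 2w pw1 to 1w pw2 the libraries ran from 1.99 to 39.7. In Lgr5 GL it read 7.03, 1.04 and 0.689 CPM at 0w and 17.9, 0 and 1.45 at 1w pw1, with 0 to 15.01 later. Every time point overlapped 0w in both populations, and adjusted p across the time course was 0.982 and 0.733.

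Tissue plasminogen activator (Plat, chr8:22757727-22782844, plus strand) was at 0 CPM in the 3 unwounded Lrig1 GL libraries. It was at 5.69, 0 and 11.1 CPM at 1w pw1, at 0, 22.0 and 0 at 2w pw1, and at 0, 0 and 12.2 at 4w pw1. All 3 libraries held it at 8w pw1 (6.19, 7.33 and 4.82 CPM) and at 1w pw2 (16.05, 4.49 and 7.23 CPM). Over the group it was at least 12.1-fold higher than at 0w at 8w pw1 (adjusted p 0.155) and at least 17.98-fold at 1w pw2 (adjusted p 0.174), or 10.9-fold without library 1 of 1w pw2. At these time points 14.8% and 13.9% of all genes had all 3 libraries above 0w.

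In Lgr5 GL, Plat read 15.4, 11.8 and 0 CPM at 0w, 6.52, 1.13 and 0.542 at 1w pw1, and 49.6, 20.5 and 25.6 at 4w pw1. The 4w pw1 libraries lay above those of 0w (log2 difference 1.78, SE 1.01, adjusted p 0.558, or -0.27 with the estimated number of surrogate variables), as 6.62% of all genes did, and above those of 1w pw1 (3.52, SE 1.11, adjusted p 0.0807, or 0.0331 without unwounded library c). Plat was at 16.2, 10.3 and 31.6 CPM at 1w pw2, again above 1w pw1 (2.81, SE 1.08, adjusted p 0.214). All 3 libraries were above those of 1w pw1 for 12.1% of all genes at 4w pw1 and for 13.7% at 1w pw2.

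The urokinase receptor Plaur (chr7:24462484-24475968, plus strand) was too sparse to test in Lrig1 GL, where it had 21 counts over 8 libraries, at most 7 in any of them, and none at 0w. In Lgr5 GL it read 3.63, 1.66 and 5.86 CPM at 0w, 21.5, 15.9 and 3.98 at 1w pw1, and 14.01, 2.00 and 0.753 at 1w pw2. Each time point overlapped 0w, and adjusted p across the time course was 0.802.

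The activator inhibitor Serpine2 (chr1:79794197-79861180, minus strand) had its lowest group means 1 week after a wound in Lrig1 GL. It read 59.0, 47.5 and 21.1 CPM at 0w, 4.75, 6.79 and 0.923 at 1w pw1, and 5.66, 0 and 0 at 1w pw2. Both wounded groups lay wholly below 0w, by 3.41 (SE 1.53, adjusted p 0.427) and 4.43 (SE 1.59, adjusted p 0.153) on the log2 scale, as 6.4% and 10.4% of all genes did. At 2w pw1 Serpine2 read 0, 2.52 and 38.2 CPM, and library c held 113 of its 117 counts. The higher mean at 2w pw1 thus rested on that library, and the median there (2.52 CPM) was below that of 1w pw1 (4.75 CPM). At 4w and 8w pw1 the libraries ran from 4.89 to 24.4 CPM.

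In Lgr5 GL, Serpine2 was also below 0w in all 3 libraries at 1w pw1 (0.326, 1.70 and 18.4 CPM, against 39.0, 20.1 and 63.4), by 2.49 on the log2 scale (SE 1.08, adjusted p 0.223), as 9.8% of all genes were. It was at 18.8, 42.3 and 39.2 CPM at 1w pw2, which overlapped 0w and lay above all 1w pw1 libraries (log2 difference 2.197, SE 1.07, adjusted p 0.308). The 4w and 8w pw1 libraries also lay above those of 1w pw1 (adjusted p 0.242 and 0.367). Of all genes 12.1%, 13.3% and 13.7% lay above 1w pw1 in this way at 4w pw1, 8w pw1 and 1w pw2. Without library 3 of 1w pw1 the difference from 0w at 1w pw1 was -5.47 and passed the test, with an adjusted p of 0.0477.

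**Figure D4:**
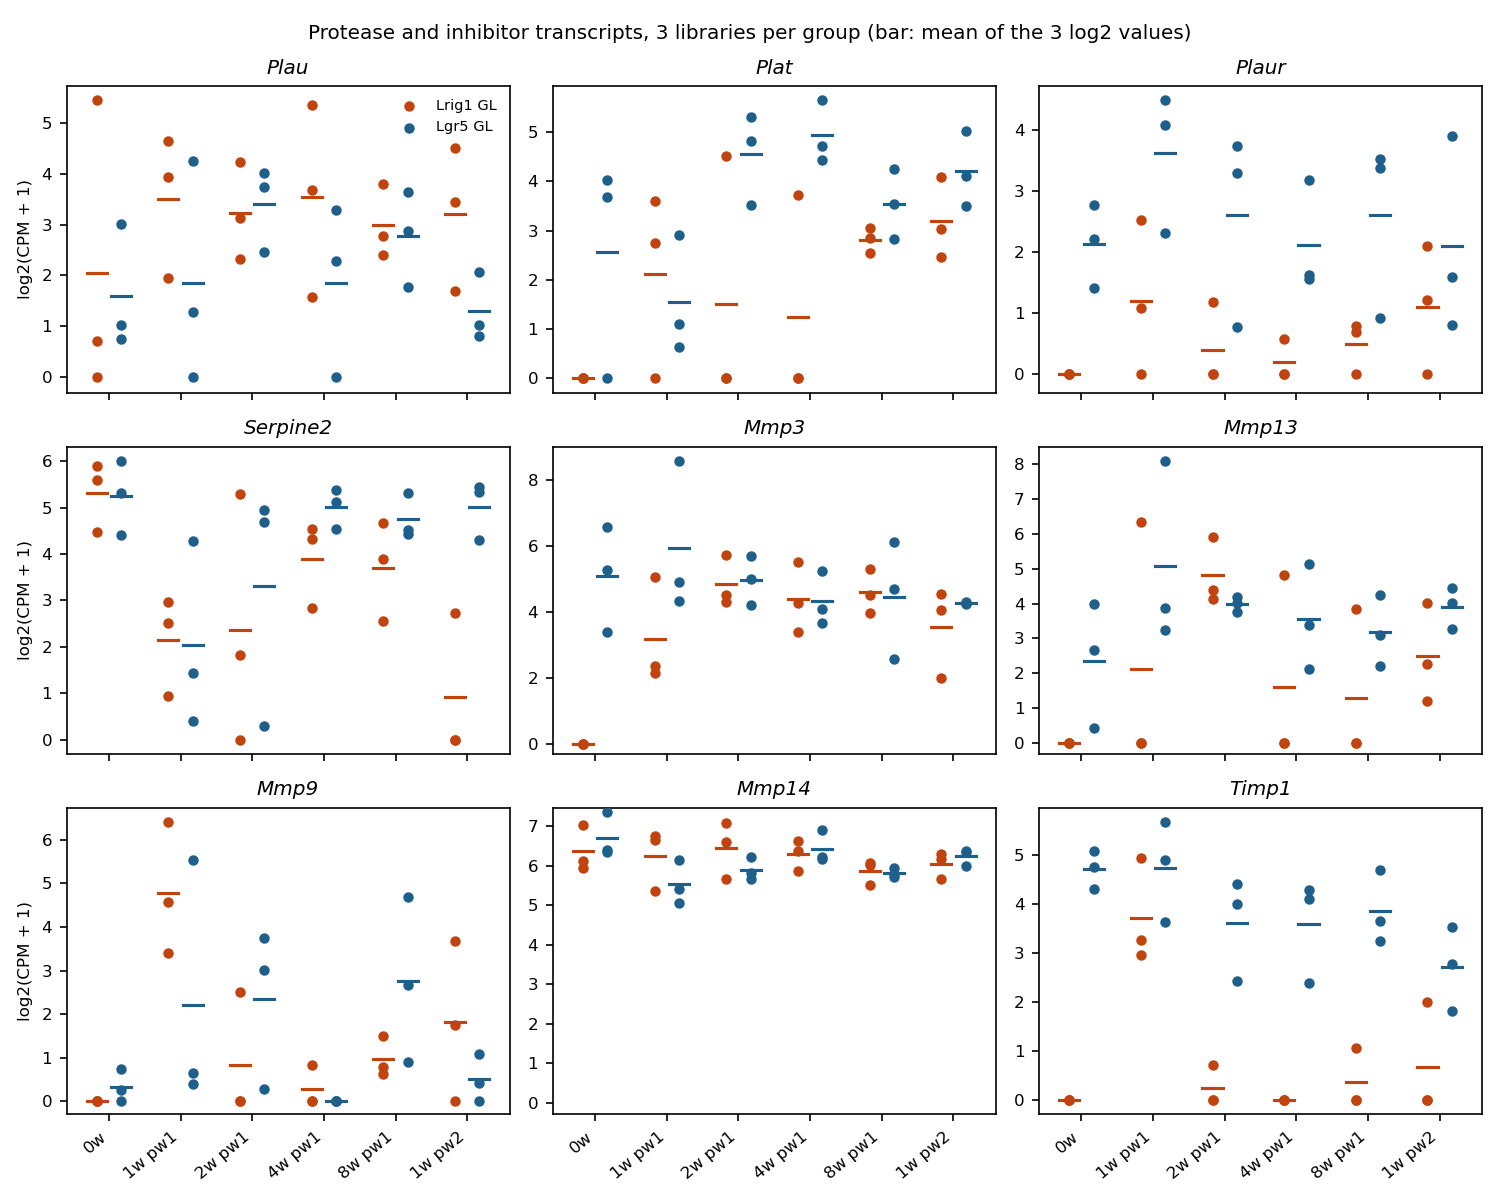
The 9 genes in 9 panels, as log2(CPM + 1) at each of the 6 time points, 1 point per library and a bar at the mean of the 3, for Lrig1 GL (orange) and Lgr5 GL (blue). Mmp14 stays within 39.9 to 136 CPM in Lrig1 GL, while Mmp9 and Timp1 have their highest Lrig1 GL points at 1w pw1.

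Counted over the whole set, 0 of the 8 members tested in Lrig1 GL and 0 of the 9 tested in Lgr5 GL passed the edgeR test across the time course, against 1.63% and 1.13% of all genes. At an unadjusted p under 0.05 there were 3 in Lrig1 GL (Mmp3, Mmp9 and Timp1, with adjusted p 0.0567, 0.0567 and 0.0752) and 4 in Lgr5 GL (Mmp3, Mmp9, Mmp13 and Mmp14). Over all genes tested, 2931 of 14306 in Lrig1 GL and 3038 of 18025 in Lgr5 GL were under that p. DESeq2 called 2 in Lrig1 GL (Mmp3 and Mmp9) and 3 in Lgr5 GL (Mmp9, Mmp13 and Mmp14). The likelihood ratio test of edgeR called 3 and 2, and limma-voom 0 and 0. The shares of 1.63% and 1.13% belong to the quasi-likelihood test, which called 233 and 203 genes. Under the alternative fit with the most calls, these numbers reached 1999 and 1975. The share of all genes is not given for each method, so these member counts cannot be weighed against it. The second wound was compared with the first at the same interval after wounding: 0 members passed for 1w pw2 against 1w pw1 in either population by edgeR, with 0 and 5 at an unadjusted p under 0.05. That unadjusted limit was met by 1269 of 14306 genes in Lrig1 GL and 3026 of 18025 in Lgr5 GL. Of all genes tested 0% passed in Lrig1 GL, and 0.266% passed in Lgr5 GL, and for the difference of this change between populations 0.0557%. DESeq2 called Mmp3 and Timp1 lower at 1w pw2 in Lgr5 GL, the Mmp3 difference being the one that turned with surrogate variables. How many of all genes DESeq2 called in that comparison is not given here. In Lgr5 GL 0 members passed against 0w, where 1.29%, 0%, 0.155%, 0% and 0% of all genes did from 1w pw1 to 1w pw2, with 4, 2, 0, 2 and 1 members at an unadjusted p under 0.05. Among all 18025 genes tested, 3353, 1584, 1936, 1070 and 1157 were under that p at these time points. For 1w pw2 against 8w pw1, 8w against 1w pw1 and 4w against 1w pw1, 0 members passed, against 0.00699%, 0.356% and 0% of all genes for Lrig1 GL and 0%, 1.33% and 3.15% for Lgr5 GL.

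Other genes of the same systems were read from lists. Of 11 other plasminogen system genes, 7 were tested in Lrig1 GL and 8 in Lgr5 GL. Of 19 other metalloproteinases these numbers were 4 and 9, and of 8 further metalloproteinase inhibitors and partners 6 and 7. By edgeR 0 of them passed in Lrig1 GL, across the time course or at a single time point. At an unadjusted p under 0.05 there were 3 of 7, 1 of 4 and 4 of 6 in these lists across the time course. Of all genes tested in Lrig1 GL, 2931 of 14306 were under that p.

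In Lgr5 GL, 1 of the 8 other plasminogen genes passed across the time course. This was Serpinb2, an inhibitor of urokinase, with means of 223 ± 48.0 CPM at 0w, 79.8 ± 53.5 at 4w pw1, 575 ± 119.996 at 8w pw1 and 183 ± 54.6 at 1w pw2 (adjusted p 0.0271). From 1w to 4w pw1, where 3.15% of all genes passed, Serpini1 (neuroserpin, an inhibitor of Plat) rose by 5.53 on the log2 scale (SE 1.45, adjusted p 0.0470). S100a10, which binds plasminogen at the cell surface, fell by 1.47 (SE 0.37, adjusted p 0.0417), and Bsg, an inducer of metalloproteinases, fell by 1.39 (SE 0.27, adjusted p 0.0152). The median log2 change of the 8 plasminogen genes in that comparison was -0.94, against 0.11 for all genes tested.

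The genes whose levels followed a member most closely were ranked by the smaller of their Spearman rho values in the populations, each over 18 libraries, among 10381 genes. For Mmp3 these were Esd-ps, Phldb2 and mt-Atp6 (0.548 to 0.556), for Mmp13 Cmpk1, Snap29 and Rnf7 (0.573 to 0.608), and for Mmp9 Klhl36, Adamts5 and March6 (0.502 to 0.533). Mmp14 was followed by Cnot8, Gga2 and Mblac1 (0.529 to 0.583), Serpine2 by Abi3bp, Slc35f1 and Nfix (0.560 to 0.589), Plat by Kctd6, Ints6 and Baz1a (0.598 to 0.602), and Plau by Tmem143, Dnmt3a and Zfp335 (0.471 to 0.498). No member was among the 3 genes nearest to another. The 3 were picked as the highest of 10381, so the size of these values partly reflects the picking, and it was not tested.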

How the data were processed

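The authors trimmed reads with Trim Galore 0.5.0, aligned them with HISAT2 2.2.01 to mm10 and counted exons per gene name with featureCounts 1.6.12 (strand not given in the sources used here). The deposited values are raw read counts, 1 table per population, and 0 columns were left unused. Of the 36 columns, 15 were matched to a labelled sample and 21 to a group (libraries a, b and c).

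Genes were filtered by edgeR 4.0.16 (minimum count 10), scaled by TMM and fitted over the 18 libraries of a population with 6 groups and the quasi-likelihood test (R 4.3.3, prior count 0.125). Calls needed a Benjamini-Hochberg adjusted p under 0.05 and, against 0w, a log2 change over 1 in size. Populations were compared in a single fit of 12 groups. DESeq2 1.42.0, limma 3.58.1 and sva 3.50.0 gave alternatives. The p-values measure the spread between libraries.

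Gene positions are from GENCODE M21 (GRCm38). The members and lists were chosen with earlier results of these data known. Named beside them were list genes that were called, markers, and the 3 genes most like each member.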

Additional observations from a re-analysis of the deposited data

Results flagged for a closer look

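The change of Mmp3 from 0w to 8w pw1 differed between Lrig1 GL and Lgr5 GL cells, with an adjusted p of 0.0395 for the difference of the changes. Mmp3 had 0 counts in the 3 unwounded Lrig1 GL libraries and 21.8, 14.7 and 38.1 CPM at 8w pw1, while in Lgr5 GL it read 37.2, 9.55 and 94.8 CPM at 0w and 68.0, 24.9 and 4.98 CPM at 8w pw1. The difference lost the call in 14 of 36 fits without 1 library (adjusted p 0.0516 to 0.0931), with limma-voom (0.112), with surrogate variables (0.160 and 0.122) and with the GC trend removed (0.110). For the change to 2w pw1 the log2 difference was 9.81 (adjusted p 0.150 by edgeR), against 9.56 for 8w pw1, so the call does not set 8w pw1 apart. At 0w the fibroblast markers summed to 7.70 to 41.6 CPM in Lrig1 GL (5 of 8 markers in that table) and to 122 to 358 CPM in Lgr5 GL (7 of 8). The tables were normalised apart and hold different markers, so these sums are not on a common scale. The part of these cells in the difference was not tested.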

How the results depend on the processing

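Of 1291 values under the alternatives, for 42 results, 1288 kept their direction. These results were member changes chosen because all 3 libraries of each group lay apart, and the Mmp3 differences between populations. Groups that lie apart can hardly change direction when 1 library is left out, so this count is no test of the directions. With the estimated number of surrogate variables Plat at 4w pw1 against 0w in Lgr5 GL was -0.27 on the log2 scale, and Mmp3 at 1w pw2 against 1w pw1 in Lgr5 GL was 0.69, or 1.06 with 2 surrogate variables. The cause was not tested.

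The number of members called across the time course in Lrig1 GL (0) was 1 with a stricter count filter, 3 with the likelihood ratio test, 2 with DESeq2 and 1 with the replicate block, and in Lgr5 GL (0) 2 with the likelihood ratio test and 3 with DESeq2. Calls against 0w in Lrig1 GL (2) were 5 with the stricter filter, 8 with the likelihood ratio test, 7 with DESeq2, 0 with limma-voom, 0 with either number of surrogate variables and 1 with the GC trend removed. In Lgr5 GL (0) they were 2 with the likelihood ratio test and 3 with DESeq2. Calls between later time points (0) were 1 with limma-voom in Lrig1 GL, and in Lgr5 GL 2 with the likelihood ratio test and 6 with DESeq2. Changes that differed between populations (1) were 8 with the likelihood ratio test, 11 with DESeq2, 0 with limma-voom, 0 with either number of surrogate variables, 0 with the GC trend removed and 2 with the replicate block. Leaving out 1 library gave 0 to 1, 0 to 4 and 0 to 0 calls in Lrig1 GL (across the time course, against 0w, later), 0 to 0, 0 to 1 and 0 to 1 in Lgr5 GL, and 0 to 3 between populations.

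Over all genes, calls across the time course numbered 233 for Lrig1 GL (8 to 1999 under the alternatives) and 203 for Lgr5 GL (0 to 1975). For the other comparisons, the calls over all genes under the alternatives are not given here. Replicate numbers did not pair the samples (mean correlation of same-numbered libraries 0.00369 over 9 pairs in Lrig1 GL and -0.0155 over 3 in Lgr5 GL), and the replicate block moved no other count of members by over 1.5 times. At these depths 3 counts in a library amount to 1.01 to 3.39 CPM in Lrig1 GL and 0.389 to 2.92 CPM in Lgr5 GL.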
